A study of Mus musculus with 8 samples.

Results

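The tumour suppressor p53, encoded by Trp53, and 9 genes that it is known to activate were followed in the outflow tract of the mouse heart, which carries blood out of the ventricles. The genes were Trp53, Plk2, Cdkn1a, Mdm2, Ccng1, Bax, Bbc3, Pmaip1, Sesn2 and Zmat3, 10 of the 33495 genes of the deposited table, each taken as the row that bears its symbol, and each symbol had 1 row. RNA was sequenced from 4 mutant samples, in which Mef2c was knocked out conditionally in the anterior heart field, and from 4 wild-type samples. All were on the CD-1 background. Progenitors of the anterior heart field build the outflow tract and the right ventricle, and Mef2c encodes a MADS-box transcription factor of heart and muscle. The sources used here name neither the driver of the deletion, nor the stage, nor the number of embryos per sample. P-values therefore measure only how these samples vary, which may be technical.

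p53 is a transcription factor that is held at a low level by the ubiquitin ligase MDM2 and is stabilised by DNA damage and other stress. It then binds paired copies of a short DNA element and raises genes that stop the cell cycle, trigger cell death through mitochondria, limit oxidative damage, or feed back on p53 itself. In mouse embryos, excess p53 activity, as after loss of Mdm2, is known to be lethal or to cause malformations, the heart among them.

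Plk2 was the one gene of this set that passed the test between the groups. It encodes a polo-like kinase known as a serum-inducible kinase and a p53 target, and it was 1.69-fold higher in mutant outflow tracts. The cell cycle inhibitor gene Cdkn1a had an opposite fold change of similar size that did not pass the test over all genes. Trp53, its inhibitor gene Mdm2, and the targets Ccng1, Bax, Bbc3, Sesn2 and Zmat3 had fold changes from 0.824 to 1.05, and none passed. Pmaip1 had too few reads to be tested.

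Sequences before the gene starts are shown first, for the genes that held the p53 element there. RefSeq windows of build GRCm38.p6, covering the 250 bases before each listed start, were found for 8 of the genes (11 windows). Zmat3 had no entry and Pmaip1 was not searched. The windows were searched on both strands for exact matches to the 10-base p53 half-site consensus, with no mismatch allowed. A half-site was found in 5 of the 8 genes and in 5 of their 11 windows, against 7.13% of all 32851 windows in the table. Cdkn1a alone among them held a pair of half-sites no more than 13 bases apart, an arrangement found in 0.0639% of all windows. In each line below the p53 half-site is in capitals, on the strand of the gene, 5′ to 3′.
Cdkn1a, upstream start, chr17:29090891-29090952, plus strand: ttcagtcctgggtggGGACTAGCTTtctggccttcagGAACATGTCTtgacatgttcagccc
Trp53, chr11:69580269-69580308, plus strand: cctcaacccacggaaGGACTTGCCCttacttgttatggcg
Mdm2, chr10:117710920-117710959, minus strand: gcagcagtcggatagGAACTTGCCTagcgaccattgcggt
Ccng1, chr11:40755447-40755486, minus strand: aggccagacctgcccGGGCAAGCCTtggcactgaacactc
Bax, chr7:45467075-45467114, minus strand: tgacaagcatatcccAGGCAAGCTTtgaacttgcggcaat
The half-sites of the Cdkn1a pair began 73 and 51 bases before the upstream start, with 12 bases between them. The 10 bases directly after the second of them, tgacatgttc, miss the consensus at their first base only. They were therefore not marked, and the marked pair need not be the pair that p53 binds. The half-site began 75 bases before the start in Trp53, 186 in Mdm2, 185 in Ccng1 and 201 in Bax. No half-site was found in the windows of Plk2, Bbc3 or Sesn2 or in the downstream window of Cdkn1a, which says only that these letters are not there.

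The whole Plk2 window is shown because Plk2 was the gene that rose. Its capitals mark TGACGTCA, the palindrome known as the cAMP response element, which began 62 bases before the RefSeq start. The nearest transcript start in GENCODE vM21, an annotation of the same build, lies 2 bases further downstream.
Plk2, chr13:110394794-110395043, plus strand, GRCm38.p6: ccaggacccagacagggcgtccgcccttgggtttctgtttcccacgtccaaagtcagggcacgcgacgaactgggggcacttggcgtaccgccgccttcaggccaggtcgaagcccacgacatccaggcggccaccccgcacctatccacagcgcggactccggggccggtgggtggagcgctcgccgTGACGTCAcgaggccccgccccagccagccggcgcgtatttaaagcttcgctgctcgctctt
That element was found in 1.55% of all windows and, among the genes of the set, in Plk2 only. The other motifs searched were GGGCGG, found in 6 of the 8 genes and in 32.7% of all windows, CCAAT, in 5 of 8 and 33.8%, and TATAAA, in 1 of 8 and 12.4%. Bbc3 had 3 windows and Cdkn1a 2, so counts by gene are not directly comparable with shares of windows. The MEF2 site consensus (2.92% of windows) and the CArG box consensus (1.47%), the element of serum response factor, were found in 0 of the 8 genes. These matches describe letters and do not show binding.

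Total counts ran from 7138732 to 11012246 per library. A count of 3, taken as the floor, stood for 0.278 to 0.413 CPM (reads scaled to library size with TMM factors), and such limits cover counting error only. Replicates 1 and 2 of each group were sequenced on lane 1 and replicates 3 and 4 on lane 2. Mutant library 1 and wild-type library 4 held 9 and 3 reads of 4 Y-linked genes, against at least 1595 in each other library. Mef2c itself, counted over the whole gene, had 1390, 1150, 1227 and 1423 reads in mutant libraries and 1207, 946, 791 and 728 reads in wild-type libraries. Whole-gene reads therefore give no check of the labels. For the exon of Mef2c that changed most, the authors' deposited table gives -3.30 as log2 ratio, mutant over wild type. Markers of heart muscle were present in every library. The cardiac troponin gene Tnnt2 stood at 1670 to 1980 CPM in mutant and 1200 to 2060 CPM in wild type. Isl1, of the same outflow list, was less even, at 11.1 to 41.2 CPM in mutant and 16.9 to 59.2 in wild type. Tnnt2 checks for heart muscle and not for the outflow tract as such. Where 0.942% of all genes tested were called lower, 2 of 8 outflow muscle markers were. These were Myl7, at -0.97 on the log2 scale, which lost its call on lane 2 alone, and Myh7, at -0.48, which lost it without any 1 of mutant libraries 1, 2 and 3 or wild-type libraries 1 and 3 (adjusted p up to 0.1229, edgeR). The list did not move as one, with 6 values below 0 and 2 above. Those above were Tnnt2 at 0.07 and Mef2c at 0.32, and neither passed (adjusted p = 0.9119 and 0.2116, edgeR). DESeq2 called 2 of the 8, against 2.98% of all genes. An unadjusted p under 0.05 was found for 3, against 11.4% of all genes. In tissue, fewer cells of a type and less RNA per cell cannot be told apart.

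Some marker levels moved with the groups, and each count below stands against 1.5% of all genes called by edgeR, 2.98% by DESeq2, 6.72% with groups that did not overlap and 11.4% with an unadjusted p under 0.05. Summed markers of endothelium stood at 659 to 823 CPM in mutant and 532 to 620 in wild type. Of those 7, the receptor gene Tek was called, at a log2 fold change of 0.74 that lost its call on lane 2 alone (0.58). By itself Tek averaged 169.9 CPM in mutant and 102.0 in wild type. The other 6 had overlapping groups, with Emcn at -0.87 and the rest above 0. Of the 7, 3 had an unadjusted p under 0.05, and DESeq2 called 1. Summed epicardial markers stood at 204 to 272 CPM in mutant and 114 to 218 in wild type. Of those 6 markers, Aldh1a2 was called, at an adjusted p of 0.0361 (edgeR) that was lost without mutant library 1, 3 or 4 or wild-type library 2 or 3 (up to 0.1186). All 6 had values above 0, 3 had mutant libraries wholly above wild type, 4 had an unadjusted p under 0.05, and DESeq2 called 2, Aldh1a2 and Tcf21. Chamber muscle markers summed to 413 to 1200 CPM in mutant and 976 to 1890 in wild type. Of those 7, the light chain gene Myl3 was called, at -1.56, and lost its call without any 1 of mutant libraries 1, 2 and 3 or wild-type libraries 1, 2 and 4 (adjusted p up to 0.1148, edgeR). The chamber list was not uniform, with 5 values below 0 and 2 above. In it 1 gene had groups that did not overlap, 2 had an unadjusted p under 0.05, and DESeq2 called 1. Hepatic markers summed to 11.7 to 60.6 CPM in mutant and 1.91 to 10.4 in wild type, with 0 of 3 tested members called by edgeR, 3 at an unadjusted p under 0.05 and 2 by DESeq2, and Alb and Serpina1a below 1 CPM in every library. Blood markers varied widely within groups, and the groups overlapped. Erythroid markers summed to 1530 to 8520 CPM in mutant and 3260 to 12800 in wild type. All 7 erythroid values lay below 0, with 0 called by edgeR or DESeq2 and 0 at an unadjusted p under 0.05. Leukocyte markers summed to 9.33 to 11.3 CPM in mutant and 7.84 to 23.4 in wild type. Mitochondrial transcripts took 5.19 to 6.12% of the reads in mutant and 6.46 to 7.25% in wild type. The part of these differences in the results below was not tested, except for the chamber level, which was used as a covariate.

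Expressed per kilobase of exon, the genes spanned a wide range of levels. In mutant libraries the order by mean RPKM (CPM divided by exon length in kilobases) was Plk2, Ccng1, Bax, Trp53, Mdm2, Zmat3, Cdkn1a, Sesn2, Bbc3 and Pmaip1, from 63.7 RPKM ± 0.570 to 0.429 ± 0.252 (SD, n = 4). In wild-type libraries Ccng1 stood first, at 58.2 RPKM ± 8.51, then Plk2 at 37.6 ± 4.31 and Bax at 32.9 ± 3.92 (SD, n = 4). Neighbours in that order had overlapping ranges in mutant for Bax with Trp53 and Bbc3 with Pmaip1. In wild type each neighbour from Plk2 down to Zmat3 overlapped the next, as did Bbc3 and Pmaip1. Plk2 therefore lay above the range of Ccng1 in mutant and below it in wild type.

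**Figure D1:**
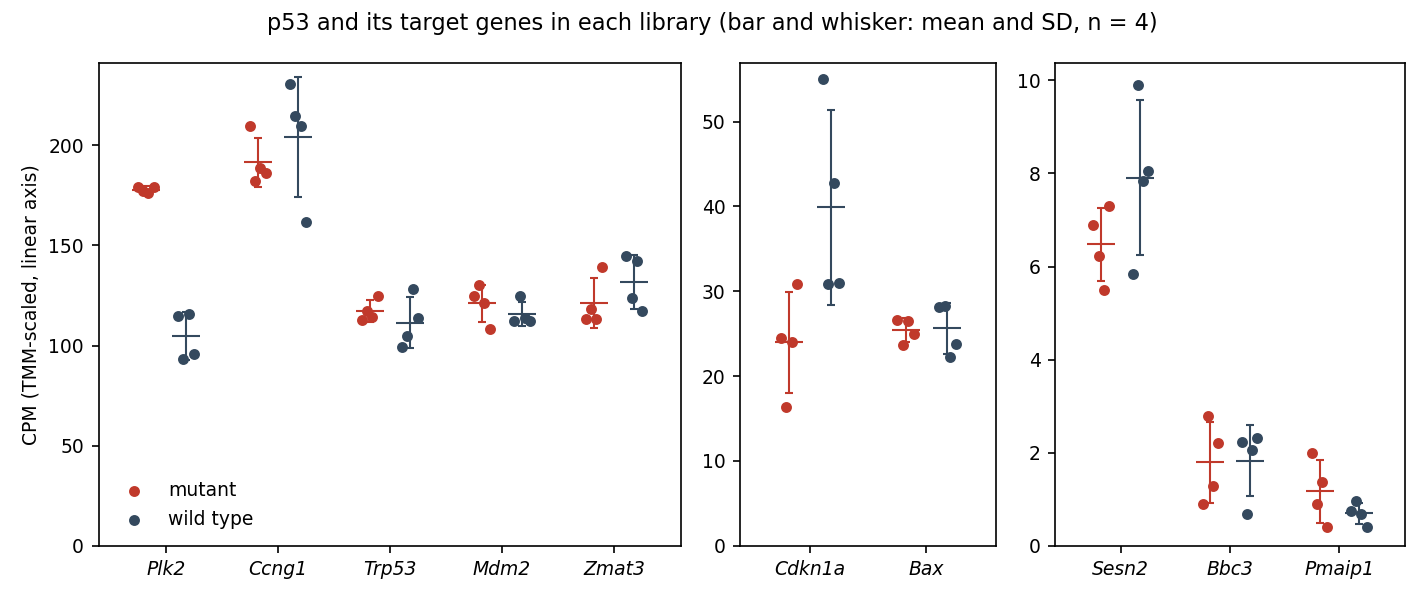
Scaled read counts (CPM) of p53 and its targets in every library, on 3 linear axes chosen by level, with mutant (red) left of wild type (blue) and the mean and SD of 4 libraries beside the points. Plk2 sits at 176.1 to 179.4 CPM in mutant, above all wild-type libraries, while the groups of the other genes overlap.

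Of the genes that act on the cell cycle, Plk2 (ENSMUSG00000021701, chromosome 13, 111185256 to 111191047, plus strand, mm9) had 179.4, 177.2, 176.1 and 179.1 CPM in mutant libraries 1 to 4 and 115.0, 93.5, 115.7 and 95.6 CPM in wild-type libraries 1 to 4. All mutant libraries lay above all wild-type libraries. The mutant libraries differed by less than counting error alone would give, so their closeness is not read as a trait of the mutant. The means were 178.0 CPM ± 1.59 in mutant and 105.0 ± 12.0 in wild type (n = 4 each, SD). The log2 fold change was 0.76 ± 0.0925 (SE), with a 95% interval of 0.56 to 0.96 and an adjusted p of 0.00127 (edgeR's quasi-likelihood test, Benjamini-Hochberg over 14757 genes). Plk2 was the 1 of 9 tested members called, where 1.5% of all genes tested were called, 0.562% higher and 0.942% lower. It was also the 1 member whose groups did not overlap, where 6.72% of all genes tested had groups that did not overlap. On lane 1 alone its log2 fold change was 0.77 (adjusted p = 0.00959, edgeR) and on lane 2 alone 0.74 (adjusted p = 0.0286, edgeR). With the chamber level as a covariate it was 0.72 and remained called.

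Cdkn1a (ENSMUSG00000023067, chromosome 17, 29227924 to 29237667, plus strand, mm9) encodes p21, the inhibitor of cyclin-dependent kinases through which p53 arrests the cell cycle. Its level was 24.5, 16.4, 24.1 and 30.9 CPM in mutant libraries 1 to 4 and 55.0, 30.8, 42.8 and 31.0 CPM in wild-type libraries 1 to 4. The groups overlapped only at mutant library 4, whose 30.87 CPM lay just above the 30.8 CPM of wild-type library 2. The means were 23.96 CPM ± 5.92 in mutant and 39.9 ± 11.5 in wild type (n = 4 each, SD), a log2 fold change of -0.74 ± 0.220 (SE) with a 95% interval of -1.22 to -0.25. It did not pass over all genes (adjusted p = 0.1775, edgeR), though its unadjusted p was 0.00649, and 11.4% of all genes tested had one under 0.05. With DESeq2, which called 2.98% of genes, it passed at an adjusted p of 0.0382. The log2 fold change was -1.07 on lane 1 alone (adjusted p = 0.108, edgeR) and -0.43 on lane 2 alone (adjusted p = 0.554, edgeR), and the test of group by lane gave an adjusted p of 0.488 by edgeR. Without wild-type library 1, the highest, it was -0.54.

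The authors' deposited table gave both genes a score above its threshold of 13.01, which stands for a false discovery rate of 0.05 and which 1.73% of all its rows exceeded. The score in the authors' deposited table was 53.85 for Plk2 and 35.6 for Cdkn1a. The modified log2 fold change there, which its header says was adjusted for high-variance samples, was 0.66 for Plk2 and -0.04 for Cdkn1a. The other 8 genes scored at most 0.104 in the authors' deposited table.

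Set against each other in the same library, Plk2 had 7.31, 10.8, 7.32 and 5.80 reads per Cdkn1a read in mutant and 2.09, 3.04, 2.70 and 3.08 in wild type. This ratio was chosen after both values were seen and is a description.

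**Figure D2:**
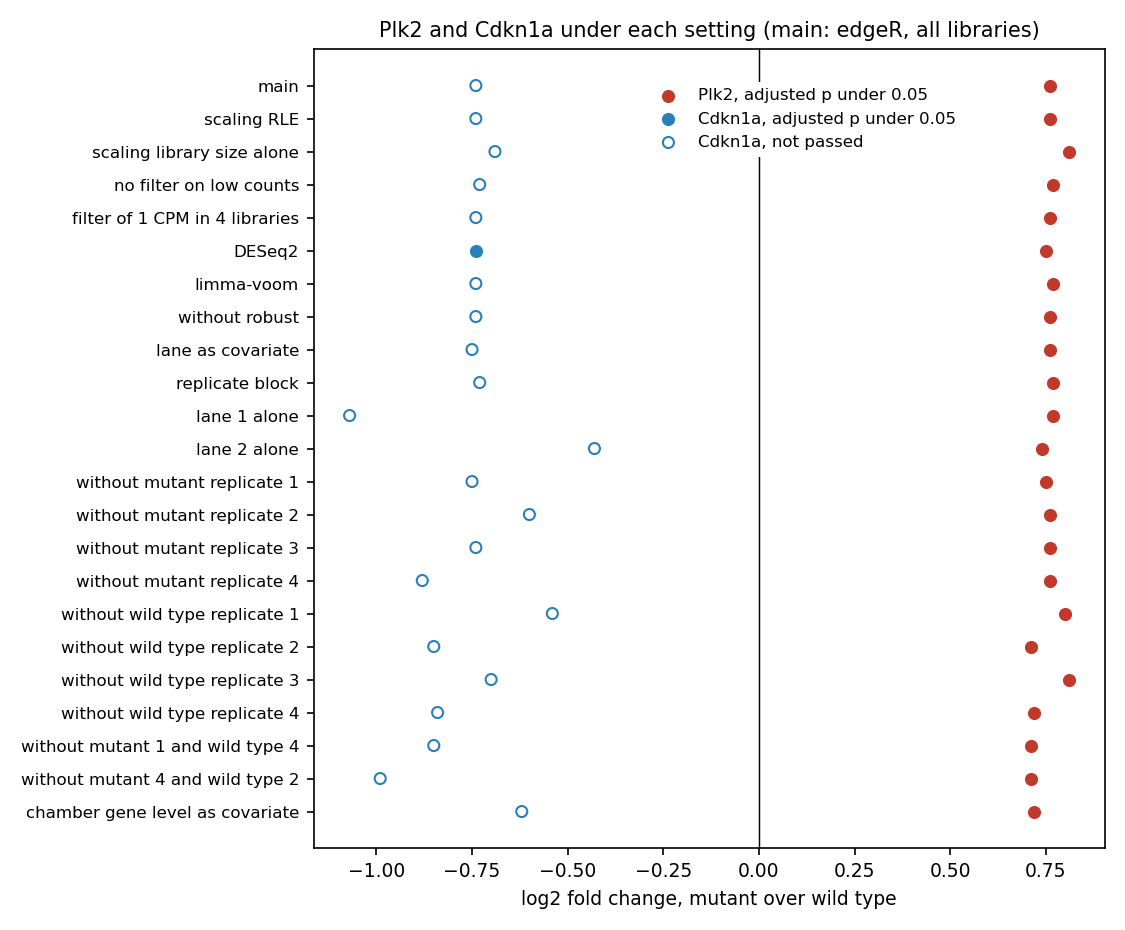
Log2 fold change of Plk2 (red) and Cdkn1a (blue) under the reported setting and 22 alternatives, with filled points where the adjusted p was under 0.05. Plk2 runs from 0.71 to 0.81 and is filled throughout, whereas Cdkn1a runs from -1.07 to -0.43 and is filled with DESeq2 only.

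Ccng1 (chromosome 11, 40562054 to 40568813, minus strand, mm9), which encodes cyclin G1, a target that takes part in the feedback on MDM2, had 209.5, 182.0, 188.5 and 186.4 CPM in mutant and 230.8, 214.9, 209.8 and 161.5 CPM in wild type. The groups overlapped, with the lowest value in wild-type library 4. Its log2 fold change was -0.09 ± 0.110 (SE, adjusted p = 0.8197, edgeR), and the 95% interval of the fold ran from 0.794 to 1.11.

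Trp53 itself (chromosome 11, 69393861 to 69405375, plus strand, mm9) had 112.9, 117.3, 114.3 and 125.0 CPM in mutant and 99.4, 104.6, 128.1 and 113.9 CPM in wild type. Its groups overlapped, with the highest and the lowest value both in wild type. The fold was 1.05 with a 95% interval of 0.916 to 1.21 (adjusted p = 0.8275, edgeR). Transcript level says little about p53 protein, which is known to be set mainly by its breakdown. Mdm2 (chromosome 10, 117125944 to 117147814, minus strand, mm9), the ligase that drives that breakdown and a direct target, had 124.9, 130.2, 121.3 and 108.5 CPM in mutant and 112.2, 124.8, 113.6 and 112.2 CPM in wild type. The groups of Mdm2 overlapped and its fold was 1.05, with a 95% interval of 0.922 to 1.19 (adjusted p = 0.8329, edgeR). A rise of Mdm2 as large as that of Plk2 thus lay outside its interval. Zmat3 (chromosome 3, 32233720 to 32264600, minus strand, mm9), a zinc finger RNA-binding protein also called Wig1, averaged 121.1 CPM ± 12.5 in mutant and 132.0 ± 13.6 in wild type (n = 4 each, SD). Its fold of 0.917 had a 95% interval of 0.788 to 1.07 (adjusted p = 0.7172, edgeR).

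The death genes included the pore-forming Bax (chromosome 7, 52717072 to 52722185, minus strand, mm9), which had 26.65, 23.64, 26.5 and 24.97 CPM in mutant and 28.1, 28.32, 22.29 and 23.77 CPM in wild type. Mutant libraries of Bax lay within the range of the wild-type libraries. Its log2 fold change was -0.01 ± 0.119 (SE), with a 95% interval of the fold of 0.830 to 1.19 (adjusted p = 0.986, edgeR). Bbc3 (chromosome 7, 16894965 to 16903554, plus strand, mm9), which encodes the BH3-only protein PUMA, had only 8, 22, 13 and 22 reads in mutant and 24, 5, 15 and 17 in wild type. Its fold of 0.964 carried an interval of 0.498 to 1.86, and a fold as large as that of Plk2 lay inside it. Pmaip1, which encodes the BH3-only protein NOXA, had 18, 7, 14 and 4 reads in mutant and 8, 7, 5 and 3 in wild type, 43 against 23 in all, and did not pass the filter on low counts. Tested without that filter, its log2 fold change was 0.73 (adjusted p = 0.7429, edgeR).

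The balance of Bax with Bcl2, the survival protein of the same family, was compared as 1 ratio per library. The log2 ratio of Bax to Bcl2 was -1.44 ± 0.131 in mutant and -1.65 ± 0.155 in wild type (n = 4 each, SD), 0.21 higher in mutant. An exact permutation test over 70 arrangements, two-sided, gave p = 0.0857, where the smallest possible was 0.0286. Bcl2 contributed more than Bax to that difference, with 69.0 CPM ± 3.08 in mutant and 80.4 ± 7.40 in wild type (n = 4 each, SD). Its groups did not overlap, and its log2 fold change of -0.22 did not pass (adjusted p = 0.3788, edgeR). Bcl2 overlaps a gene on the other strand with few reads, and the use of strand in counting is not given in the sources used here. Of 12 tested BCL2 family genes 0 passed by edgeR or DESeq2, which called 1.5% and 2.98% of all genes. An unadjusted p under 0.05 was found for 2, Bak1 and Bcl2, and for 11.4% of all genes. Among the family was Mcl1, a survival factor and the most abundant by reads, at 0.06 on the log2 scale (adjusted p = 0.8333, edgeR).

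Sesn2 (chromosome 4, 132047947 to 132066416, minus strand, mm9), one of the sestrins, which restrain the growth kinase mTORC1 and limit oxidative damage, had 6.89, 6.23, 5.50 and 7.29 CPM in mutant and 5.84, 9.90, 7.84 and 8.06 CPM in wild type. The groups overlapped through wild-type library 1. Its fold was 0.824 with a 95% interval of 0.607 to 1.12 (adjusted p = 0.6738, edgeR). Sesn2 gave 5.31% of the summed RPKM of the 3 sestrin genes in mutant and 6.04% in wild type. Sesn3, the sestrin with most reads, stood at -0.09 on the log2 scale (adjusted p = 0.8814, edgeR). None of the 3 sestrins was called by edgeR or DESeq2 or had an unadjusted p under 0.05. Among all genes tested 1.5% were called by edgeR, 2.98% by DESeq2, and 11.4% had such a p. Sesn2 is also known as a target of the stress factor ATF4. The ATF4 list had 9 tested genes. Of these 0 passed by edgeR or DESeq2 and 1 had an unadjusted p under 0.05, against those same shares of all genes. Atf4 itself stood at -0.04 (adjusted p = 0.9065, edgeR), and Vldlr, a lipoprotein receptor with the smallest p of that list, at -0.81 (adjusted p = 0.3107, edgeR), which passed on lane 2 alone at -1.20.

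Within the polo-like kinases, Plk2 was the 1 of 4 tested genes called higher, by edgeR and by DESeq2, and the others did not pass. Of all genes tested, 0.562% were called higher by edgeR and 2.98% were called by DESeq2. All 4 had values above 0. Groups did not overlap for 2 of them, Plk2 and Plk4, against 6.72% of all genes. The same 2 had an unadjusted p under 0.05, against 11.4% of all genes. Plk1, the mitotic kinase, averaged 74.6 CPM ± 3.38 in mutant and 71.2 ± 13.2 in wild type (n = 4 each, SD), a log2 fold change of 0.07. Plk4, the kinase of centriole duplication, averaged 92.5 CPM ± 4.05 in mutant and 81.6 ± 4.63 in wild type. Its groups did not overlap, but its log2 fold change of 0.18 did not pass (adjusted p = 0.4235, edgeR). Plk3, itself a p53 target, had 163 mutant reads and 117 wild-type reads, at 0.30 ± 0.277 (SE). Plk2 held 50.5% of the family's summed RPKM in mutant and 39.5% in wild type. Plk1, Plk3 and Plk4 were named to complete the family after their values were seen.

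Among inhibitors of cyclin-dependent kinases 0 of 5 tested genes passed by edgeR, 1, Cdkn1a, passed by DESeq2, and 2 had an unadjusted p under 0.05. Of all genes tested 1.5% passed by edgeR, 2.98% by DESeq2, and 11.4% had such a p. Cdkn1c, the imprinted inhibitor p57, was by far the most abundant and made up 80.5% of their summed RPKM in mutant and 82.0% in wild type. It averaged 396.4 CPM ± 54.4 in mutant and 518.0 ± 71.5 in wild type (n = 4 each, SD), or -0.39 on the log2 scale (adjusted p = 0.2103, edgeR). Cdkn1a made up 4.02% in mutant and 5.22% in wild type. Cyclin G1 and its relatives Ccng2 and Ccni, and the ZMAT zinc finger genes, had 0 called members of 3 and of 4 tested, by edgeR or DESeq2, and 0 with an unadjusted p under 0.05.

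**Figure D3:**
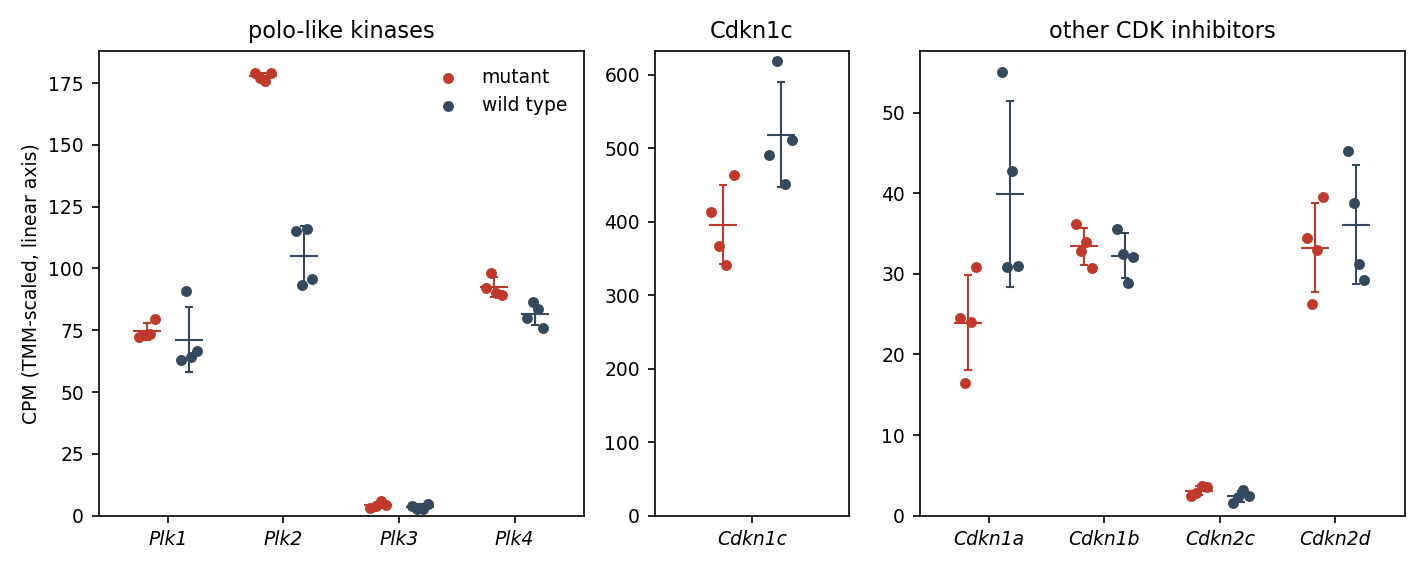
Scaled read counts (CPM) of the polo-like kinases and of the CDK inhibitors in every library, on linear axes, with mutant (red) left of wild type (blue) and the mean and SD of 4 libraries. Plk2 stands apart between the groups, Plk4 differs by less, and Cdkn1c exceeds the other inhibitors in both groups.

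Other reported p53 targets were read from 3 lists, by role in arrest, in cell death, or in repair and metabolism. Of 34 tested members 0 rose, 1 fell and 33 did not pass, where 0.562% of all genes tested rose and 0.942% fell. Values below 0 were found for 22 of the 34, against 7574 of all 14757 genes. Their median log2 fold change was -0.08, that of the 9 tested members of the set above was -0.05, and that of all 14757 genes was -0.006. The gene that fell was Perp, which encodes a membrane protein of cell death and of desmosomes, with 12.5, 10.4, 9.91 and 16.1 CPM in mutant and 52.6, 45.6, 55.7 and 41.7 CPM in wild type. Its groups lay far apart, with a log2 fold change of -1.995 ± 0.162 (SE, adjusted p = 7.36e-05, edgeR), and it was called under each of the 22 alternatives. Perp and Plk2, both known p53 targets, thus changed in opposite directions. Ptp4a3, a phosphatase, had the smallest p among repair and metabolism targets, at -0.83 (adjusted p = 0.2251, edgeR). That gene passed with DESeq2, on lane 1 alone and without mutant library 3. Gpx1, the glutathione peroxidase with most reads among these targets, stood at -0.05 ± 0.227 (SE).

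**Figure D4:**
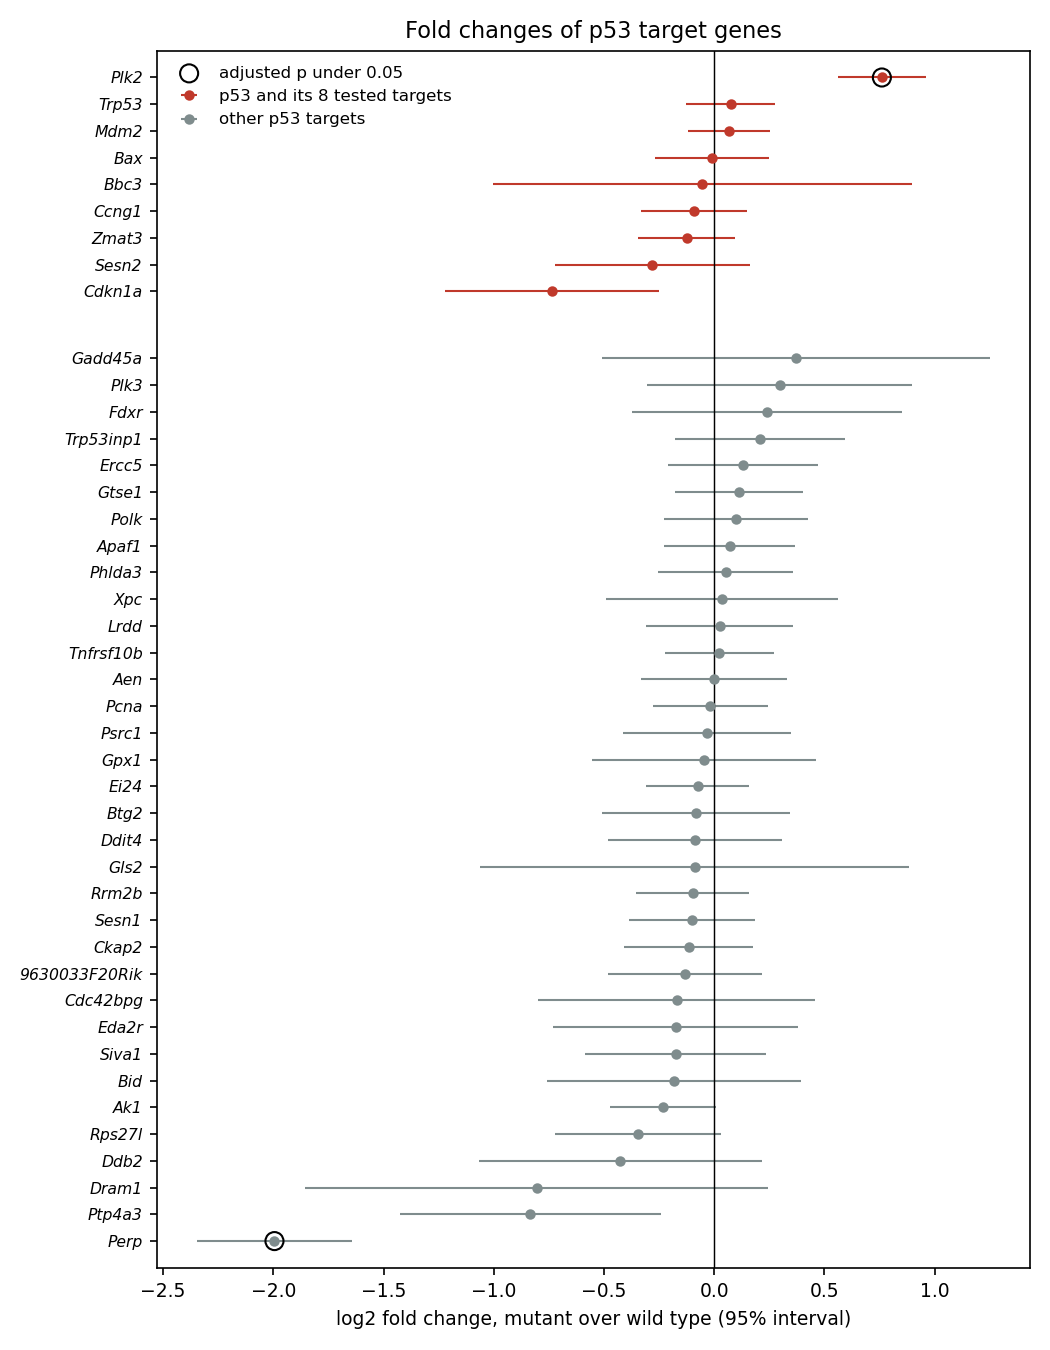
Log2 fold change, mutant over wild type, with its 95% interval for p53 with its 8 tested targets (red, top) and 34 other p53 targets (grey, bottom), ringed where the adjusted p was under 0.05. Plk2 at 0.76 and Perp at -1.995 are ringed, and 1 further interval in red, that of Cdkn1a, and 1 in grey, that of Ptp4a3, lie wholly on one side of 0.

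Genes that act on p53, from damage kinases and ligases to the ribosomal proteins that bind MDM2, had 20 tested members. Of these 0 passed by edgeR or DESeq2 and 1 had an unadjusted p under 0.05. Of all genes tested 1.5% passed by edgeR, 2.98% by DESeq2, and 11.4% had such a p. The median log2 fold change of the 20 was 0.015. Mdm4, the partner of MDM2, stood at 0.12 ± 0.102 (SE) and the phosphatase gene Ppm1d, also a p53 target, at 0.12 ± 0.128 (SE), both named after their values were seen. Hipk2, a kinase that phosphorylates p53, had the smallest p of the list, at -0.42 (adjusted p = 0.2079, edgeR). It passed only with the chamber level as a covariate, at -0.60 (adjusted p = 0.0127, edgeR). Rpl5 had the most reads of the list and stood at -0.01 ± 0.107 (SE). Of the p53 relatives, Trp63 had 12 mutant reads and 88 wild-type reads, 81 of them in wild-type library 4, and Trp73 had 4 mutant reads and 0 wild-type reads, so neither was tested.

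Cell cycle genes that p53 is known to lower through p21 had 13 tested members. Of these 0 were called by edgeR or DESeq2 and 0 had an unadjusted p under 0.05. Of all genes tested 1.5% were called by edgeR, 2.98% by DESeq2, and 11.4% had such a p. The 13 genes had log2 fold changes from -0.08 to 0.19 and a median of 0.013. Bub1, a mitotic checkpoint kinase, stood at 0.19 ± 0.0954 (SE, adjusted p = 0.496, edgeR), and the proliferation marker gene Mki67 at -0.08 ± 0.142 (SE, adjusted p = 0.8947, edgeR).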

How the data were processed

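The authors deposited 1 table of 33495 mouse genes with the raw count of each gene in each library. Reads were aligned with TopHat2 2.0.4 to mm9, per the submitters' processing notes, and the sources used here do not name the counting tool or its use of strand. Each library column named its group and replicate. Exon length in bases, a modified log2 fold change, a log2 ratio of the most changed exon and scores on a minus 10 log10 scale for the false discovery rate were deposited by the authors and made with USeq where the file headers say so. A further exon score, deposited by the authors with no stated scale, is not reported. Gene positions were taken from the deposited table (mm9, counting from 1) and were not mixed with the GRCm38.p6 coordinates of the RefSeq sequences.

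edgeR 4.0.16 (R 4.3.3) was used on the counts. Genes passing filterByExpr were scaled with TMM factors and tested by the robust quasi-likelihood test, two-sided, on group alone. The Benjamini-Hochberg adjustment covered 14757 genes, at a threshold of 0.05, and intervals are 95%. The SE was taken as the log2 fold change over the square root of F, without its sign. The procedure was tested on simulated data. Alternatives (DESeq2 1.42.0, limma-voom from limma 3.58.1, scaling, filtering, lane, replicate block, libraries left out) were 22 in all, 1 of them, the chamber level, added afterwards. The members, lists and tests were chosen with earlier results of these data known. Named genes were the members and, from each list, the called genes, the gene with the smallest p and the gene with most reads. For the marker lists, of heart muscle and of other cell types, only called genes or the list's summed level are given. Exceptions are Tnnt2, Isl1 and Mef2c of the outflow list, and Emcn, Tcf21, Alb and Serpina1a. Emcn and Isl1 were named after their values were seen. Chi-square per degree of freedom between replicates ran from 5.77 to 20.67, above sampling noise, so no library was treated as a copy. Python 3.11.15, pandas 2.3.3 and scipy 1.17.1 made the tables, and matplotlib 3.10.9 the figures.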

Additional observations from a re-analysis of the deposited data

Results flagged for a closer look

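Libraries far from the rest of their group were looked for among the named genes. Of 68 gene and group combinations 3 held one, and chance gives about 5%. Bbc3 had a log2 CPM of -0.15 in wild-type library 2, where the other wild-type libraries lay at 1.20 to 1.41. That value rests on 5 reads. Atf4 stood at 6.33 in mutant library 2, against 6.44 to 6.45 in the other mutant libraries. Ppm1d stood at 4.50 in mutant library 4, against 4.84 to 4.88 in the other mutant libraries.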

How the results depend on the processing

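Plk2 was called under all 22 alternatives, at 0.71 to 0.81, with adjusted p-values up to 0.0286. Members called rose to 2 with DESeq2, which added Cdkn1a, and other p53 targets called to 2 with DESeq2 and 3 on lane 1 alone. Leaving out 1 library gave 1 to 2 other targets called, 0.153 to 0.278 for the log2 ratio of Bax to Bcl2, and 110 to 231 genes in all, against 222 with every library. That total was 440 with DESeq2, 836 on lane 1 alone, 119 on lane 2 alone and 95 without mutant library 1 and wild-type library 4. With the replicate number as a block it was 76, and Plk2 stood at 0.77 (adjusted p = 0.0222, edgeR). The correlation of deviations was -0.05, -0.212, 0.222 and -0.287 for numbers 1 to 4, and -0.273 to 0.397 between unlike numbers. With 4 libraries per group these values cannot tell whether the numbers pair the samples. Library size alone as scaling split the calls into 109 higher and 122 lower, against 83 and 139. Signs turned only for genes called in no setting. On lane 2 alone Trp53 stood at -0.02, Ccng1 at 0.01, Bax at 0.15, Mcl1 at -0.01, Rpl5 at 0.10, Mdm4 at -0.04 and Ppm1d at -0.09. On lane 1 alone Bbc3 stood at 0.24, Gpx1 at 0.09, Mki67 at 0.03, Sesn3 at 0.24 and Plk1 at -0.08. With library size alone Bax was 0.04, Atf4 0.01, Gpx1 0.00 and Rpl5 0.05. With the chamber level Bax was 0.06, Mcl1 -0.01, Rpl5 0.05 and Ppm1d -0.01. Without mutant library 4 and wild-type library 2 Bax was 0.05 and Rpl5 0.06, and without mutant library 1 and wild-type library 4 Bbc3 was 0.29 and Sesn3 0.04. Rpl5 was 0.00 with no filter, limma-voom or the block. Leaving out 1 library gave -0.07 to 0.03 for Bax, -0.33 to 0.17 for Bbc3, -0.17 to 0.22 for Gpx1, -0.16 to 0.07 for Mki67, -0.08 to 0.06 for Rpl5 and -0.21 to 0.07 for Sesn3. The cause of these moves was not tested. Adding the further rows of a symbol gave no value, since each member had 1 row. Bbc3 and Pmaip1 had few reads in every library.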

Other observations

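Fas and Sfn, p53 targets of cell death and of arrest, had too few reads to be tested. Fas had 8, 18, 5 and 0 reads in mutant and 0, 1, 2 and 4 in wild type. Sfn, which encodes an epithelial 14-3-3 protein, had 1, 1, 5 and 2 reads in mutant and 2, 0, 1 and 12 in wild type. Wild-type library 4 thus held most reads of both Sfn and Trp63 in its group. These genes were singled out after their values were seen.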
